A study of Mus musculus with 10 samples.

Results

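The 9 genes followed here let phagocytes recognise dying cells and modified lipoproteins: the TAM receptors Mertk, Axl and Tyro3, their ligands Gas6 and Pros1, and the scavenger receptors Cd36, Msr1, Scarb1 and Cd68. They were chosen by symbol from a fixed list and all 9 had a row among the 45906 gene rows of the count table. RNA came from immune cells isolated out of the substantia nigra and striatum of male C57BL/6 mice, which had received an AAV1/2 vector at 10 to 12 weeks of age, and made 10 libraries. In 5 of them (EV) the vector was empty, and in 5 (A53T) it carried A53T haSyn, human α-synuclein with a mutation that causes familial Parkinson disease. Cells were isolated 16 weeks after the injection, from mice 26 to 28 weeks old, so both groups share the surgery, the virus and the density gradient. The labels name neither a promoter for the transgene nor a cell sort, and do not say whether a library is 1 mouse or a pool, so p-values measure the spread between these libraries.

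TAM receptors are tyrosine kinases that bind phosphatidylserine on dying cells through the bridging proteins Gas6 and protein S, the product of Pros1. Mertk is the member best known from the uptake of apoptotic cells by macrophages and microglia, Axl is known as an inducible receptor of inflamed tissue, and Tyro3 is the member best known from neurons. Cd36, Msr1 and Scarb1 bind oxidised or modified lipoproteins, and Scarb1 is also the receptor for high-density lipoprotein. Cd68, a heavily glycosylated protein of late endosomes and lysosomes, is widely used to mark phagocytic microglia and macrophages.

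RefSeq promoter windows of build GRCm38.p6, from 250 bases before to 50 bases after a gene start, were at hand for 7 of the 9 genes, all but Msr1 and Scarb1. They were searched on both strands for GAGGAA, the core recognised by the myeloid factor PU.1, and for TGAGTCA, the site of AP-1. Among 27025 promoters of the same length, 28.3% held the first and 5.17% the second. The windows of Mertk, Pros1 and Cd68 are shown because these 3 genes varied together (below). That of Axl is shown because it is the only window besides that of Cd68 that holds a match. A relation between motif and level was not tested. Axl did not rise with Mertk, Pros1 and Cd68. Over the 10 libraries the log2 CPM of Axl had r of -0.64, -0.68 and -0.57 with theirs, in that order. Capitals mark the matches, and all windows are written 5′ to 3′ on the strand of the gene. They lie at chr2:128698665-128698964 (plus strand, Mertk), chr16:62854057-62854356 (plus strand, Pros1), chr11:69666121-69666420 (minus strand, Cd68) and chr7:25788684-25788983 (minus strand, Axl).
Mertk: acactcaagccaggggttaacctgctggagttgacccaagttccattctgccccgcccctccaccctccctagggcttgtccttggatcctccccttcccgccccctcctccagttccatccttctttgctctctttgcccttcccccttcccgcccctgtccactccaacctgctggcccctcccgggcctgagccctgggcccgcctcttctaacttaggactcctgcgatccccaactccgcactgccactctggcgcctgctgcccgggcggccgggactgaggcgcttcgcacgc
Pros1: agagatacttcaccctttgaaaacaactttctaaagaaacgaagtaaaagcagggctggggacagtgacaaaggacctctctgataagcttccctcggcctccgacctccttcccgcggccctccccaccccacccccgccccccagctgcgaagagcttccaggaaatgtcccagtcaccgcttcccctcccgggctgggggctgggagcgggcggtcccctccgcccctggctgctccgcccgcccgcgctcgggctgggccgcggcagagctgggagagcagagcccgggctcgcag
Cd68: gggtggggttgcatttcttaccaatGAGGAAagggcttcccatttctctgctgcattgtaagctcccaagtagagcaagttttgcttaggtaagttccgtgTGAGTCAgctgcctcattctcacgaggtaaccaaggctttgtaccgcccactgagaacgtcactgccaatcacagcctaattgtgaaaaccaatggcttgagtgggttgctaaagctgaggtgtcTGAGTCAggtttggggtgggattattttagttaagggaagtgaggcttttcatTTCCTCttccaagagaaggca
Axl: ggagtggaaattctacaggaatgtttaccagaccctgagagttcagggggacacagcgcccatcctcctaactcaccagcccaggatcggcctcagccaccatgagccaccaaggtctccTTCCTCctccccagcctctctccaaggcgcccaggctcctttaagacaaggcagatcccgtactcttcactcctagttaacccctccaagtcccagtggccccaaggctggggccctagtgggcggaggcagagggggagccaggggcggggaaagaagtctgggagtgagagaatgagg
Cd68 held 2 matches to each motif. Its GAGGAA matches began 225 bases before and 29 bases after the start, and its TGAGTCA matches 149 and 24 bases before it. Axl held 1 GAGGAA match, 130 bases before the start that its window uses. The gene row of Axl in the count table begins further upstream, at 25788924, so this match lies inside the row's bounds. The windows of Cd36 (chr5:17835847-17836146) and Tyro3 (from chr2:119799264) also lie inside their gene rows, which begin at 17888959 and 119797740. For these 3 genes another start may be in use, whose surroundings were not searched. The windows of Mertk, Pros1, Tyro3, Gas6 and Cd36 held neither motif, which says only that these letters are not in those 300 bases. Both motifs had been noticed in the Cd68 window before the search, so its matches are a description.

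Library totals lay between 12386305 and 21780086 counts, so 3 reads, the number a gene at 0 could still have had, stood for 0.136 to 0.237 CPM (counts per 1000000 after scaling). Such floors cover counting error only, since the reads carry no molecular identifiers. The transgene had 1217 to 2223 reads in 4 A53T libraries, 10 reads in the library labelled A53T replicate 3, and at most 1 read in any EV library. The fraction was mixed. P2ry12, a receptor of resting microglia, ranged from 24.7 to 567 CPM over the 10 libraries and Snap25, a synaptic protein of neurons, from 35.3 to 304 CPM. A microglial score, the mean log2 CPM of 16 homeostatic microglia genes, ran from 4.05 to 8.40 and was 5.78 ± 1.13 for EV against 6.65 ± 1.81 for A53T (SD, n = 5 each; exact permutation p = 0.373, 2-sided). None of the 9 genes is in that score. Neuron scores were 6.59 ± 0.437 and 5.83 ± 1.05 (SD, n = 5 each; exact permutation p = 0.175, 2-sided; the smallest p this design can give is 0.00794). The library labelled A53T replicate 3 and A53T replicate 4 had the highest microglial scores (8.13 and 8.40) and the lowest neuron scores (5.31 and 4.27), and without them the A53T minus EV difference of the microglial score went from 0.87 to -0.20. Bpifa2, a gene of salivary glands, had 100 or more reads in 3 EV and 2 A53T libraries.

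Per kilobase of merged exon length, Mertk had the highest mean level, 33.8 ± 21.3 CPM per kb over the 10 libraries, followed by Cd68 with 26.1 ± 25.3 (SD, n = 10, also below). Tyro3 stood at 14.5 ± 2.35, Gas6 at 14.0 ± 6.07, Axl at 9.20 ± 2.05 and Pros1 at 8.83 ± 5.79 CPM per kb. Scarb1 was lower at 4.69 ± 1.16, and Cd36 and Msr1 were lowest at 0.356 ± 0.362 and 0.0781 ± 0.0840 CPM per kb. Mertk lay above Cd68 in 9 of 10 libraries and Scarb1 above Cd36 in 10 of 10. Cd68 lay above Tyro3 in 5 of 10 and Axl above Pros1 in 6 of 10, so these neighbours could not be ordered. Tyro3 was above Gas6 in 8, Gas6 above Axl in 9, Pros1 above Scarb1 in 8 and Cd36 above Msr1 in 8 libraries. The steadiest genes were Tyro3, Axl and Scarb1, whose SD was 16.1%, 22.3% and 24.7% of the mean. In Mertk, Pros1 and Cd68 it was 63.0%, 65.5% and 97.2%, and Cd68 differed 14.7-fold between its highest and lowest library.

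No member passed the test between A53T and EV. By edgeR's quasi-likelihood test, with p-values adjusted by Benjamini-Hochberg, 0 of 17409 genes were called (0% higher, 0% lower), and 8 of the 9 members had enough reads to be among them. An unadjusted p under 0.05 was reached by 378 genes (2.17%), of which Gas6 was the only member. DESeq2 called 1 gene, the transgene, and limma-voom and limma on the authors' rlog values called 0. The transgene was thus among the genes tested, and the main edgeR fit did not call even this gene. Fitted log2 fold changes were above 0 for 7 of the 8 tested members, among them Scarb1 at 0.00041 and Axl at 0.046, with a median of 0.42. Over all genes tested 9200 of 17409 were above 0, with a median of 0.027. The CPM ranges of EV and A53T overlapped for all 9 members, while they did not for 0.431% of all tested genes.

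**Figure D1:**
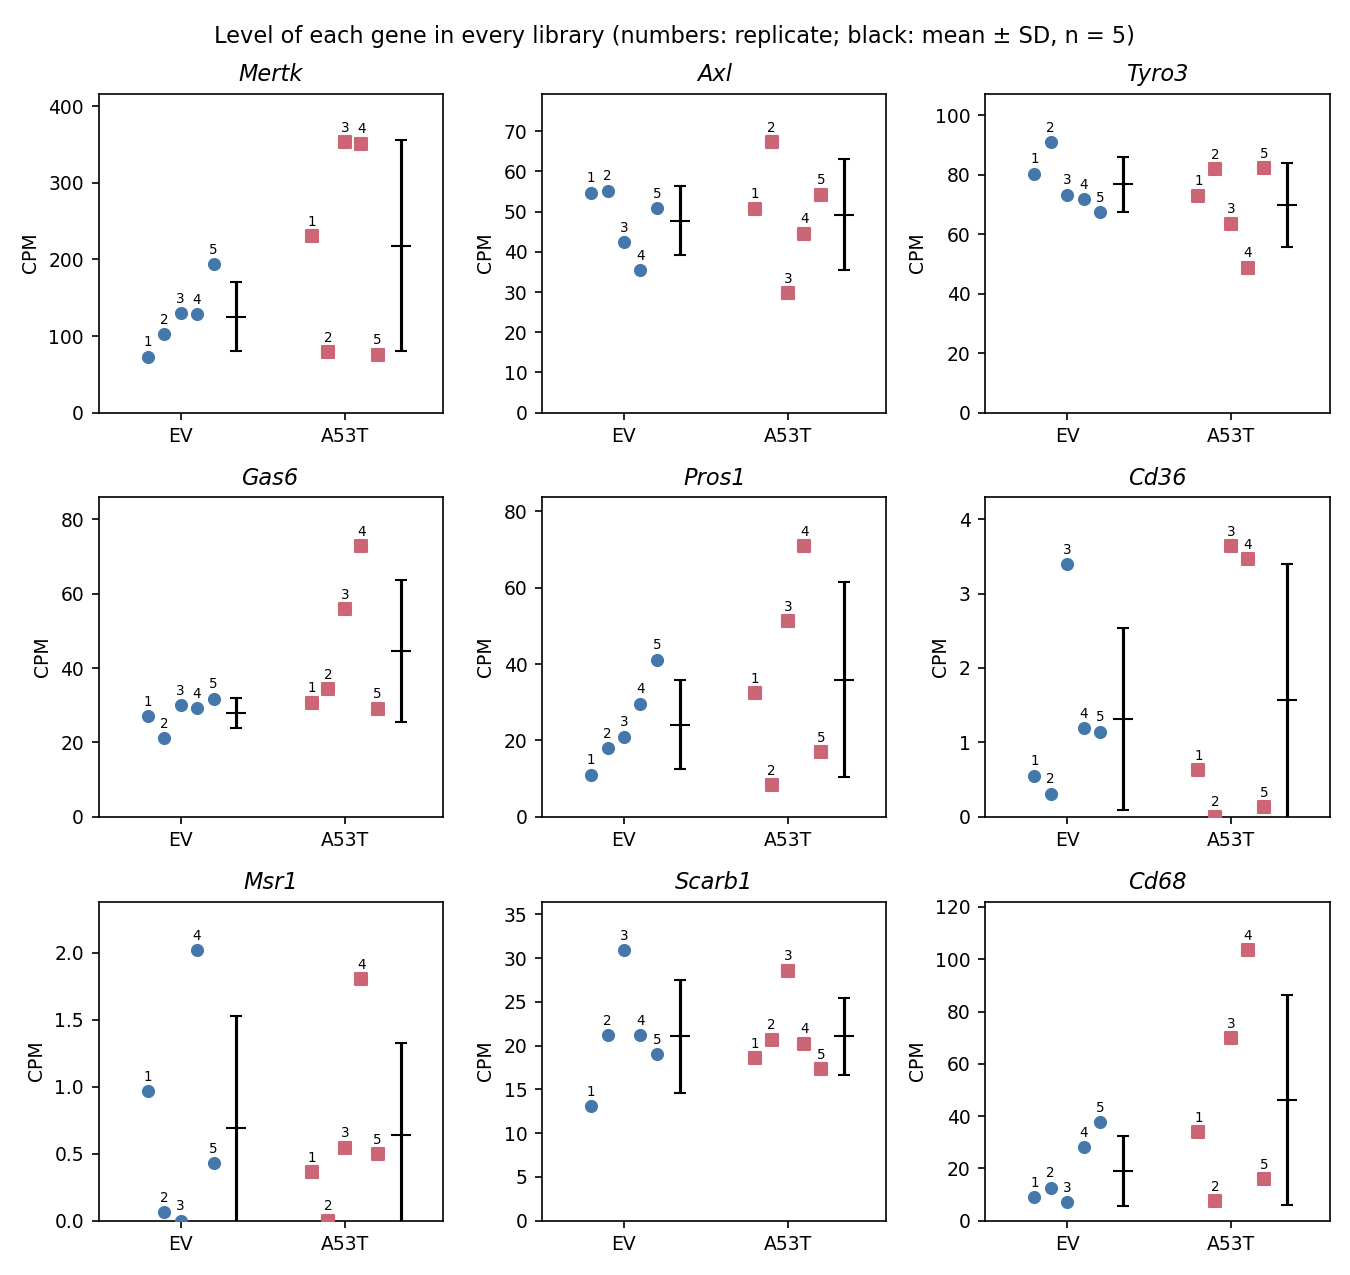
CPM of each of the 9 genes in every library, EV as circles and A53T as squares, numbered by replicate, with the group mean and SD in black (n = 5 each; SD bars of Cd36 in A53T and of Msr1 that would go below 0 end at the axis). Mertk, Pros1 and Cd68 were high in A53T replicates 3 and 4 and low in A53T replicate 2, with Mertk at 353, 351 and 78.6 CPM in these 3 libraries.

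Mertk, the uptake receptor, was read at 72.8, 102, 130, 128 and 193 CPM in EV replicates 1 to 5. In A53T replicates 1 to 5 it was read at 231, 78.6, 353, 351 and 75.5 CPM. The 3 highest libraries were thus labelled A53T, the highest of them being replicate 3, which had 10 transgene reads. But the other A53T libraries, 2 and 5, lay between EV replicates 1 and 2, the lowest of the EV group. Means were 125 ± 44.6 and 218 ± 138 CPM (SD, n = 5 each), the log2 fold change was 0.80 ± 0.47 (SE), and the edgeR adjusted p was 0.957. Without the library labelled A53T replicate 3 the log2 fold change was 0.55 ± 0.47 (SE), and without both A53T replicates 3 and 4 it was 0.035 ± 0.40 (SE).

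Axl, the inducible receptor, was read at 54.7, 55.2, 42.4, 35.4 and 50.9 CPM in EV and at 50.7, 67.3, 29.8, 44.5 and 54.2 CPM in A53T. The A53T group held both its highest and its lowest library, the lowest being the one labelled A53T replicate 3. With means of 47.7 ± 8.57 and 49.3 ± 13.7 CPM (SD, n = 5 each), its log2 fold change was 0.046 ± 0.23 (SE, edgeR adjusted p = 0.981). Its sign changed when single libraries were left out (-0.12 to 0.18).

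Tyro3, the receptor best known from neurons, was read at 80.5, 91.0, 73.3, 71.9 and 67.4 CPM in EV and at 73.0, 82.0, 63.6, 48.7 and 82.4 CPM in A53T. It was lowest in A53T replicate 4, the library with the least neuronal RNA. Group means were 76.8 ± 9.23 and 69.9 ± 14.1 CPM (SD, n = 5 each) and the log2 fold change was -0.14 ± 0.19 (SE, edgeR adjusted p = 0.957). The value was -0.029 without A53T replicate 4, -0.23 without A53T replicate 2, -0.25 without A53T replicate 5, and 0.071 when libraries were scaled by their totals alone.

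Gas6, the ligand with the highest affinity for Axl, had the smallest p of the 8 tested members. It was read at 27.1, 21.2, 30.0, 29.2 and 31.8 CPM in EV and at 30.7, 34.4, 55.8, 72.8 and 29.1 CPM in A53T. All EV libraries lay close together, and the 2 libraries that stood above the rest were the one labelled A53T replicate 3 and A53T replicate 4. Means were 27.8 ± 4.09 and 44.6 ± 19.1 CPM (SD, n = 5 each), and 4 of 5 A53T libraries were above the EV median of 29.2 CPM. The log2 fold change was 0.68 ± 0.27 (SE) with an unadjusted p of 0.0289 and an edgeR adjusted p of 0.957. It was 0.43 ± 0.23 (SE) without A53T replicate 4 and 0.58 ± 0.29 (SE) without the library labelled A53T replicate 3. With both left out it was 0.17 ± 0.20 (SE). With the microglial score in the model it was 0.45 ± 0.22 (SE, unadjusted p = 0.0610). With the neuron score in its place the log2 fold change of Gas6 was lower, at 0.22 ± 0.17 (SE). The Gas6 locus overlaps Tmem255b on the other strand over 28061 bases of the whole gene spans, introns included. How much of this is exon was not computed. Tmem255b had 163 reads in all against 6727 for Gas6. Without a stated strand setting, reads of the 2 genes cannot be told apart on any exon bases they share.

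Pros1, which encodes the TAM ligand and anticoagulant protein S, was read at 11.04, 17.9, 20.9, 29.6 and 41.1 CPM in EV and at 32.4, 8.21, 51.2, 70.9 and 16.9 CPM in A53T. Both the highest and the lowest library were again A53T. The log2 fold change was 0.57 ± 0.52 (SE, edgeR adjusted p = 0.957) over means of 24.1 ± 11.6 and 35.9 ± 25.5 CPM (SD, n = 5 each). It fell to 0.17 without A53T replicate 4, was 0.33 without EV replicate 1, and was -0.33 without both A53T replicates 3 and 4.

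Cd68, the lysosomal marker, was read at 9.04, 12.6, 7.03, 28.0 and 37.7 CPM in EV and at 33.9, 7.53, 69.8, 103 and 15.8 CPM in A53T. It had the largest fitted difference among the members, a log2 fold change of 1.29 ± 0.68 (SE, edgeR adjusted p = 0.957) between means of 18.9 ± 13.4 and 46.1 ± 40.0 CPM (SD, n = 5 each). A53T replicate 4 alone held 2242 of the 4799 A53T reads. Leaving it out gave a log2 fold change of 0.75 ± 0.64 (SE), and leaving out A53T replicates 3 and 4 together gave 0.014 ± 0.58 (SE). EV replicates 4 and 5 lay above A53T replicates 2 and 5.

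Scarb1, the high-density lipoprotein receptor, was read at 13.04, 21.2, 30.9, 21.2 and 19.0 CPM in EV and at 18.5, 20.7, 28.6, 20.2 and 17.3 CPM in A53T. Both groups had a mean of 21.1 CPM (SD 6.43 in EV and 4.40 in A53T, n = 5 each), and the log2 fold change was 0.00041 ± 0.24 (SE, edgeR adjusted p = 1.00). The SE leaves room for a difference of that size in either direction. Leaving out single libraries moved it between -0.19 and 0.13. A lncRNA on the other strand, Gm32701, overlaps Scarb1 and had 31 reads.

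Cd36 and Msr1 were scarce. Cd36, a fatty acid and oxidised lipoprotein receptor, had 8, 5, 43, 23 and 24 reads in EV and 12, 0, 80, 75 and 2 reads in A53T. Its log2 fold change of 0.27 ± 1.10 (SE, edgeR adjusted p = 0.979) was 0.91 without EV replicate 3 and -0.30 without the library labelled A53T replicate 3. Msr1, the class A scavenger receptor of macrophages, had 14, 1, 0, 39 and 9 reads in EV and 7, 0, 12, 39 and 8 in A53T, and did not pass the default filter on low counts. Fitted without that filter, its log2 fold change was -0.11 ± 1.23 (SE, edgeR adjusted p = 0.986) and its slope on the microglial score 0.67 ± 0.46 (SE, edgeR adjusted p = 0.371). No difference between A53T and EV was detected in Cd36 or Msr1, and SEs of this size leave room for large differences in either direction.

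The spread inside the groups was then set against the microglial score, by the slope of each gene on the score in an edgeR model that also held the group. A unit of the score is a 2-fold difference in the level of the marker genes. In bulk RNA, fewer cells of a type and less RNA per cell cannot be told apart. Mertk, Pros1 and Cd68 rose with the score: their slopes were 0.52 ± 0.080 (adjusted p = 5.12e-04), 0.67 ± 0.062 (adjusted p = 8.15e-06) and 0.84 ± 0.081 (adjusted p = 1.08e-05), as log2 change per unit ± SE with edgeR's Benjamini-Hochberg adjustment over 17409 genes. These are 3 of the 8 tested members, where 15.4% of all genes had a called positive slope (2677 genes) and 15.5% a called negative slope (2703 genes). When libraries were scaled by their totals alone, the split was 7723 positive and 822 negative, and the median slope of all genes moved from 0.019 to 0.22. Other measures moved with the score as well. Mitochondrial ribosomal RNA took 47.7% and 50.9% of the counts in A53T replicate 2 and EV replicate 1, which had the lowest scores, and 15.1% and 10.9% in A53T replicates 3 and 4, which had the highest. Called slopes were negative for 9 of 12 neuron and 10 of 10 astrocyte markers, and positive for 6 of 8 oligodendrocyte markers (2 negative) and for 2 of 4 tested markers of border-associated macrophages. Summed border macrophage markers ran from 3.37 to 18.4 CPM over EV and from 3.09 to 60.9 CPM over A53T. The part of these in the slopes of Mertk, Pros1 and Cd68 was not tested. The calls of Mertk, Pros1 and Cd68 held under all 21 alternatives run, among them leaving out each library, leaving out both A53T replicates 3 and 4, and a term for libraries with salivary gland reads.

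Axl and Tyro3 did not rise with the score. Their slopes were -0.16 ± 0.063 and -0.13 ± 0.052 (SE), with adjusted p of 0.0686 and 0.0843 in edgeR, and turned to 0.068 and 0.098 with scaling by library totals. Gas6 had a slope of 0.19 ± 0.074 (SE, adjusted p = 0.0677), which was 0.12 without A53T replicate 4 and 0.0071 ± 0.084 (SE, adjusted p = 0.976) without A53T replicates 3 and 4. Scarb1 had a slope of 0.067 ± 0.085 (SE, edgeR adjusted p = 0.594). It was 0.0083 without EV replicate 1, 0.016 without the library labelled A53T replicate 3 and 0.12 without A53T replicate 2. Cd36 had the steepest and least certain slope, 1.16 ± 0.45 (SE, edgeR adjusted p = 0.0653), and it was 0.76 without A53T replicate 2.

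**Figure D2:**
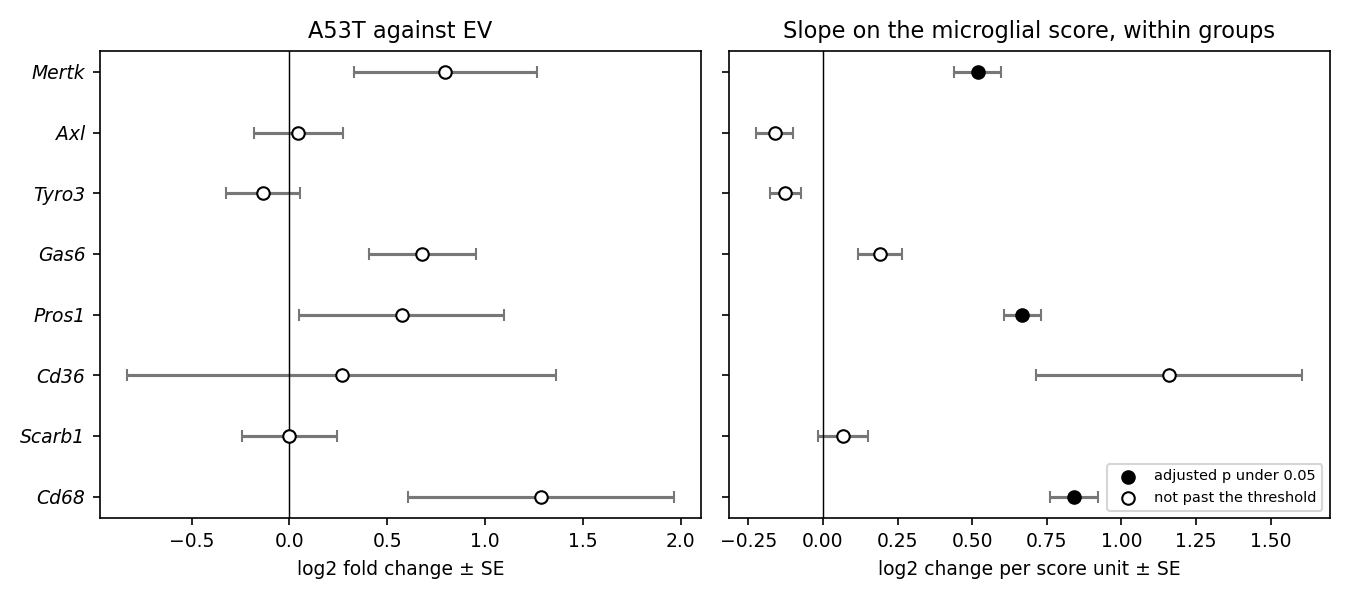
Fitted log2 fold change of A53T against EV (left) and slope on the microglial score within groups (right) for the 8 tested genes, with SE as bars; filled points passed an edgeR adjusted p of 0.05. No point is filled on the left, and Mertk, Pros1 and Cd68 are filled on the right with slopes of 0.52, 0.67 and 0.84.

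**Figure D3:**
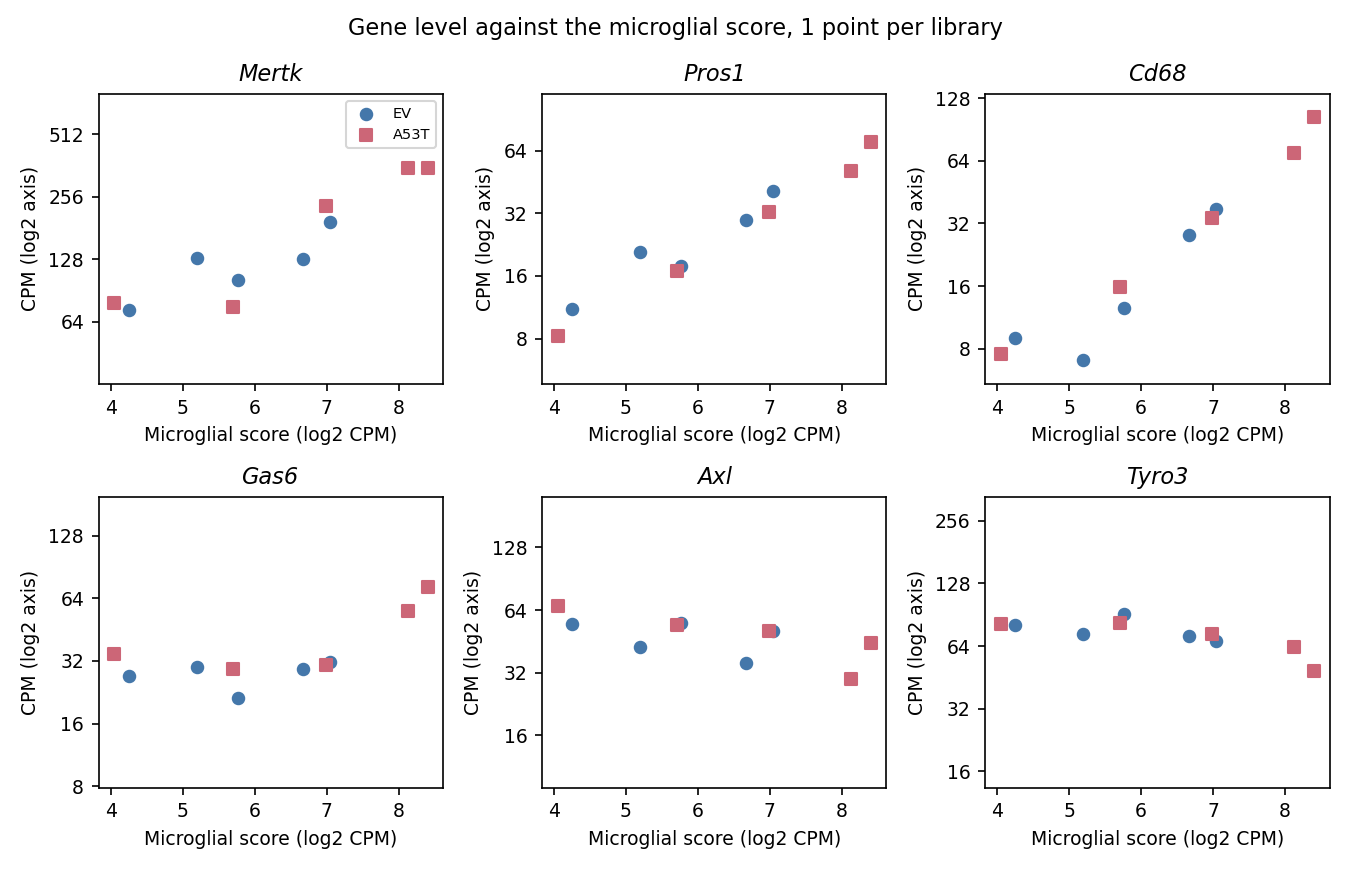
CPM on a log2 axis against the microglial score for 6 genes, 1 point per library (EV circles, A53T squares; every panel spans the same number of log2 units). Mertk, Pros1 and Cd68 climb from left to right in both groups, while Tyro3 ends at its lowest value, 48.7 CPM, in the library with the highest score, 8.40.

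With the microglial score held in the model, the differences between A53T and EV shrank for Mertk and Cd68 and turned for Pros1. The log2 fold changes were 0.13 ± 0.22 for Mertk, 0.25 ± 0.22 for Cd68 and -0.25 ± 0.17 for Pros1 (SE). Their edgeR adjusted p was 1.00, in a fit that called 0.00574% of all genes, the transgene. With the neuron score in its place they were -0.11, -0.097 and -0.46. The part of the microglial share in the unadjusted differences was not tested beyond these values.

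The receptors changed their proportions from library to library. Of the length-scaled TAM receptor level, Mertk made up 34.8% in A53T replicate 2 and 79.3% in A53T replicate 4, Axl between 6.43% and 28.7%, and Tyro3 between 11.1% and 39.4%. Group shares of Mertk were 49.3 ± 10.9% for EV and 58.9 ± 22.3% for A53T (SD, n = 5 each), so the groups differed by less than their spread. In the libraries with the lowest microglial scores the 2 genes Mertk and Tyro3 were about level, with a ratio of 0.899 in EV replicate 1 and 0.952 in A53T replicate 2. In between, the ratio did not keep to the order of the score. It was 0.911 in A53T replicate 5, at a score of 5.70, and 1.76 in EV replicate 3, at a score of 5.19. In the library labelled A53T replicate 3 and in A53T replicate 4 the ratio was 5.52 and 7.15.

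The ratios follow from the slopes of the same genes and are given as a description, chosen after their values had been seen. A ratio of 2 genes within a library does not depend on the scaling of that library. Mertk over Axl was 1.21 and 1.38 in A53T replicate 2 and EV replicate 1, and 12.3 and 8.20 in A53T replicates 3 and 4. It was 1.45 in A53T replicate 5 and 3.18 in EV replicate 3, which had the lower score of these. Both ligands had positive slopes on the score, steeper in Pros1 (0.67 ± 0.062, SE, called) than in Gas6 (0.19 ± 0.074, SE, not called). Against the neuron score with its sign reversed, both slopes were called, at 1.08 ± 0.19 in Pros1 and 0.51 ± 0.099 in Gas6 (SE). Gas6 over Pros1, by length-scaled level, was 5.49 and 3.21 in A53T replicate 2 and EV replicate 1, and between 1.01 and 2.25 in the other 8 libraries.

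**Figure D4:**
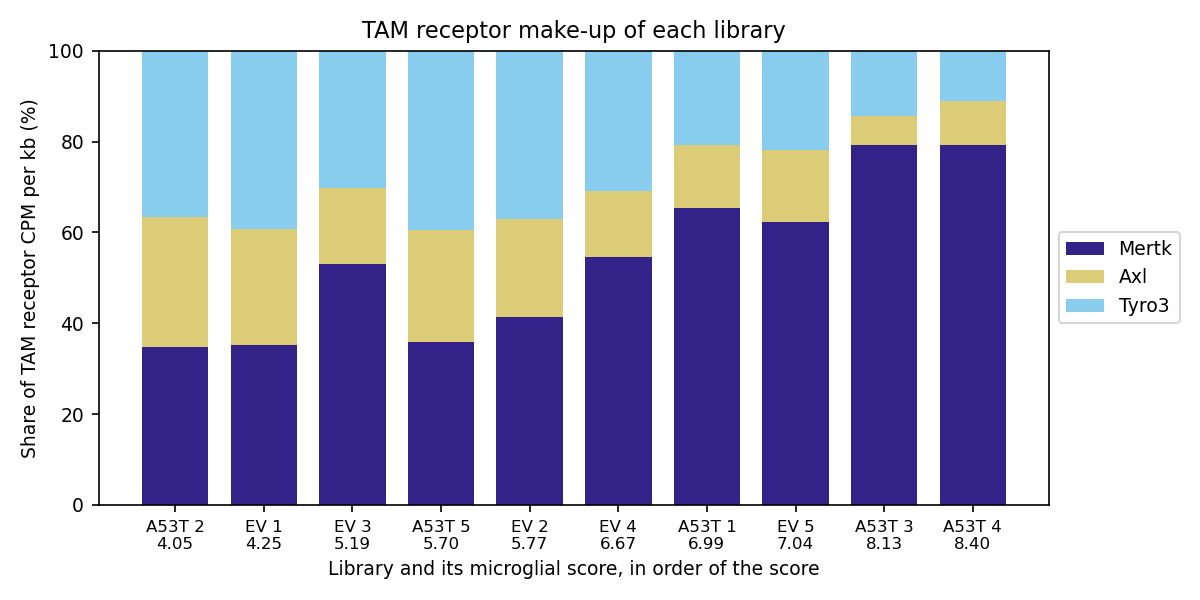
Share of Mertk, Axl and Tyro3 in the summed CPM per kb of the 3 TAM receptors, 1 bar per library, ordered by the microglial score printed under each bar. The Mertk share goes from 34.8% at the lowest score to 79.3% at the highest, with A53T replicate 5 (35.9%) below its neighbours.

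Among 12726 named genes whose average log2 CPM was 1 or more, the 3 whose log2 CPM was most like that of Mertk over the 10 libraries were Nrip1, Srgap2 and Sgk1 (r = 0.995, 0.992 and 0.989). Those most like Pros1 were Prkcd, Nfkbia and Arl4c (r = 0.991, 0.990 and 0.990), and those most like Cd68 were Mknk1, Snx18 and Heatr5a (r = 0.993, 0.991 and 0.990). Tyro3 was most like Syn2 and Sv2b, both genes of synaptic vesicle proteins, and the adenylyl cyclase gene Adcy3 (r = 0.978, 0.978 and 0.976). Gas6 was most like Pdcd11, Rtf2 and Fkbp15 (r = 0.963, 0.962 and 0.959). Axl was most like Mafa, Lrp8os2 and Rps12 (r = 0.954, 0.950 and 0.927), and Scarb1 was most like Wnt3, Trappc12 and Insr (r = 0.966, 0.928 and 0.916). Mafa, Lrp8os2 and Wnt3 were themselves low, at means of 1.94, 2.13 and 2.74 CPM. Spearman's rho was 0.90, 0.64 and 0.95 for the 3 genes of Gas6, and 0.77, 0.75 and 0.53 for those of Scarb1. For the scarce Cd36 and Msr1 the likeness rests on few reads, with highest r of 0.973 (Gtf2e2) and 0.943 (Ctnna3). Each is a description of likeness picked as the highest of many, over libraries that share their depth scaling and their mix of cells, and carries no p.

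Genes around the members in the same process were read from 6 lists, of which the first 2 share Megf10 and Lrp1. None of their members was called between A53T and EV by edgeR, where 0% of all genes was. Counts of fold changes above 0 are to be read beside 9200 of 17409 for all genes tested. Of 19 other scavenger receptors 14 were tested, and 11 had a fold change above 0 (median 0.72), such as the β-glucan receptor Clec7a with 2.21 ± 2.48 CPM (EV) against 10.5 ± 11.4 CPM (A53T) and Mrc1 with 5.13 ± 3.83 and 14.3 ± 12.8 CPM (SD, n = 5 each). Cd14 and Stab1 had log2 fold changes of 1.37 ± 0.78 and 1.08 ± 0.66 (SE). With the microglial score in the model the values were 0.19 ± 0.63 for Clec7a and 0.41 ± 0.42 for Mrc1 (SE). For Cd14 and Stab1 they were then -0.21 ± 0.28 and 0.084 ± 0.20 (SE). Called positive slopes on the microglial score were found for 6 of the 14 and a called negative one for 1, Scara3 (slope -0.35 ± 0.066, SE), against 15.4% and 15.5% of all genes.

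Of 25 genes of phosphatidylserine bridging and engulfment 24 were tested and 19 had a fold change above 0 (median 0.28). Elmo1, an adaptor that activates Rac during engulfment, was at 104 ± 18.8 CPM (EV) against 160 ± 68.2 CPM (A53T) (SD, n = 5 each; edgeR adjusted p = 0.957). The signalling adaptor Tyrobp stood at 12.1 ± 9.12 CPM in EV against 34.3 ± 32.2 CPM for A53T (SD, n = 5 each). Log2 fold changes were 1.32 ± 0.76 for Vav1 and 1.03 ± 0.59 for Dock2 (SE). Given the microglial score, they were -0.076 ± 0.18 for Vav1, -0.030 ± 0.19 for Dock2 and 0.24 ± 0.14 for Elmo1 (SE), while Tyrobp is in that score. Outside the score's own genes, 8 of 22 had a called positive slope (15.4% of all genes) and 2 a called negative slope (15.5% of all genes). The latter were Adgrb1, the phosphatidylserine receptor BAI1 (-0.45 ± 0.069, SE), and Vav3 (-0.37 ± 0.12, SE). Mfge8, another bridging protein for phosphatidylserine, had a slope of -0.042 ± 0.062 (SE).

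Of 13 genes of eat-me and do-not-eat-me signals all were tested, 5 with a fold change above 0 and 8 below (median -0.017). Sirpa, the phagocyte receptor for the do-not-eat-me signal Cd47, was at 213 ± 56.1 CPM (EV) against 346 ± 185 CPM (A53T), and Cd47 at 41.1 ± 9.26 and 41.3 ± 3.49 CPM (SD, n = 5 each). The log2 fold changes of Cx3cr1, Calr and Xkr4 were 1.12 ± 0.74, 0.37 ± 0.30 and -0.44 ± 0.39 (SE). Given the microglial score, which holds Cx3cr1, they were 0.21 ± 0.16 for Sirpa, 0.064 ± 0.15 for Calr and -0.23 ± 0.20 for Xkr4 (SE). Of 12 genes outside the score, 4 had a called positive slope (15.4% of all genes) and 2 a called negative one (15.5% of all genes), namely Xkr4 (-0.43 ± 0.077, SE) and the neuronal chemokine Cx3cl1 (-0.52 ± 0.10, SE).

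Of 22 TAM regulators, shedding enzymes and enzymes of ligand carboxylation 20 were tested, 17 with a fold change above 0 (median 0.28). Adam17, a protease that sheds Mertk from the cell surface, was at 25.3 ± 10.1 CPM (EV) against 39.5 ± 25.4 CPM (A53T) (SD, n = 5 each), and had a slope of 0.52 ± 0.072 on the microglial score (SE, edgeR adjusted p = 2.28e-04). Lgals3, Grb2 and Ifnar2 had log2 fold changes of 1.91 ± 1.03, 0.33 ± 0.20 and 0.88 ± 0.57 (SE). Given the microglial score, these were 1.31 ± 0.92, 0.18 ± 0.16 and -0.13 ± 0.35, and that of Adam17 was 0.020 ± 0.20 (SE). Called slopes were positive for 8 of the 20 (15.4% of all genes) and negative for 1 (15.5% of all genes), Vkorc1l1 (-0.26 ± 0.075, SE), a vitamin K reductase.

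Of 14 genes of lipid handling after uptake 13 were tested, 10 with a fold change above 0 (median 0.46). The cholesterol exporter gene Abcg1 was at 54.1 ± 15.0 CPM (EV) against 81.8 ± 31.3 CPM (A53T), and Npc1, which moves cholesterol out of lysosomes, at 65.4 ± 18.7 and 96.5 ± 35.1 CPM (SD, n = 5 each). Cyp27a1 and Npc2 had log2 fold changes of 1.13 ± 0.74 and 0.46 ± 0.32 (SE). Given the microglial score, these were 0.33 ± 0.40 and 0.013 ± 0.18, and those of Abcg1 and Npc1 were 0.29 ± 0.15 and 0.30 ± 0.16 (SE). Slopes were called positive for 8 of the 13 (15.4% of all genes) and negative for 1 (15.5% of all genes), the fatty acid binding protein gene Fabp5 (-0.21 ± 0.055, SE).

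Of 16 phagolysosome genes 15 were tested, 13 with a fold change above 0 (median 0.86). Called positive slopes were found for 11 of the 15 (15.4% of all genes) and a called negative one for 1 (15.5% of all genes). Hexa, a lysosomal hexosaminidase subunit, was at 36.6 ± 15.4 CPM (EV) against 80.9 ± 56.5 CPM (A53T) (SD, n = 5 each; unadjusted p = 0.0347, edgeR adjusted p = 0.957). The cathepsin genes Ctsl and Ctsb had log2 fold changes of 1.07 ± 0.54 and 0.86 ± 0.45, and the tetraspanin gene Cd63 of 0.51 ± 0.27 (SE). Given the microglial score, these were 0.16 ± 0.15, 0.24 ± 0.16 and 0.31 ± 0.24, and that of Hexa was 0.48 ± 0.18 (SE). Rubcn, which encodes a protein of LC3-associated phagocytosis, had the called negative slope (-0.20 ± 0.046, SE).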

How the data were processed

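Per the labels' protocols, 10 libraries (5 EV, 5 A53T) were made with a stranded kit and PCR from 0.5 ng of RNA. The authors deposited raw read counts per RefSeq gene, not normalized, with merged exon lengths (used here for levels per kb), and the same genes as rlog values on a log2 scale. Tools in the submitters' processing notes are DESeq2 1.24.0, featureCounts 1.6.4, STAR 2.7.2b and cutadapt 2.5, and no source used here gives the strand setting of the counting.

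The counts were tested with edgeR 4.0.16 in R 4.3.3 (quasi-likelihood F test, robust, TMM scaling, default filter on low counts, Benjamini-Hochberg adjustment over 17409 genes, threshold 0.05). CPM values use the TMM-scaled library size, and scores use log2 CPM with a prior count of 2. SEs were taken from the log2 value and its F value. Alternatives were DESeq2 1.42.0, limma 3.58.1 (voom with sample weights, or rlog values), other scaling, filters and covariates, the replicate number as a block, and leaving out libraries; a term for salivary gland reads was chosen after seeing the data. The procedure was run on simulated data. For the group comparison these held no difference in cell mix between libraries, so they do not show how well differences in the real libraries would be found. Named genes were the members, up to 4 genes of smallest p in each list, and the 3 genes most like each member; genes singled out for a called negative slope, Cd47, Mfge8, the ratios of members, the promoter motifs and the promoters shown were chosen after their values were seen. Leaving out A53T replicates 3 and 4 was planned from earlier results. The members and lists were chosen with earlier results of these data known. No pair of libraries was alike within sampling noise. The labels do not say whether mice shared a litter or a day.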

Additional observations from a re-analysis of the deposited data

Results flagged for a closer look

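Cd36 in EV replicate 3 was at 3.40 CPM (43 reads), with the other EV libraries at 0.306 to 1.19 CPM. Its gap to the next library was 0.714 of the whole EV range, above the limit of 0.71 for 5 samples. It was the 1 library set apart in 22 groups of 5 looked at (the 9 genes and both scores in each group), and chance sets apart about 1 in 20. The value is within the range of A53T, where the library labelled A53T replicate 3 was at 3.64 CPM and A53T replicate 4 at 3.46 CPM. The cause was not tested.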

How the results depend on the processing

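The count of 0 genes called between A53T and EV was 1 under DESeq2, the replicate block, the microglial or neuron score as covariate, both A53T replicates 3 and 4 left out, and without A53T replicate 3, and 0 to 1 over the 10 leave-one-out fits; the called gene was the transgene in each. The count of 5380 genes with a called slope was 8545 with library totals alone, 1269 under the replicate block, 1398 with both A53T replicates 3 and 4 left out and 3239 with the salivary gland term, and 3313 to 6415 over the leave-one-out fits, lowest without A53T replicate 2. Mertk, Pros1 and Cd68 kept a called positive slope under all 21 alternatives, with 0.37 to 0.96, 0.45 to 1.08 and 0.57 to 1.37 per unit of the score used (the neuron score and P2ry12 have units of their own). Over all member slopes, 145 alternative values kept sign and side of the threshold, 21 passed it for Axl, Tyro3, Gas6, Cd36 or Scarb1, and 2 turned (Axl 0.068 and Tyro3 0.098 with library totals alone). No member was called between A53T and EV under any of 24 alternatives, and Gas6 kept a positive fold change in all 24 (0.17, with both A53T replicates 3 and 4 left out, to 1.03). Of these fold changes, 38 turned. Signs turned with limma-voom for Cd36 (-0.42), Scarb1 (-0.031), with DESeq2 for Scarb1 (-0.036), with limma on rlog values for Axl (-0.010), Cd36 (-0.064), Scarb1 (-0.0042), and with RLE size factors for Scarb1 (-0.037). They also turned with upper quartile scaling for Scarb1 (-0.025), with library totals alone for Tyro3 (0.071), with a filter of CPM over 1 in 5 libraries for Scarb1 (-0.00072), and with the replicate block for Cd36 (-0.64). The sign turned further with the microglial score as covariate for Pros1 (-0.25), Cd36 (-2.39), Scarb1 (-0.060), with the neuron score as covariate for Mertk (-0.11), Tyro3 (0.081), Pros1 (-0.46), Cd36 (-2.56), Scarb1 (-0.097), Cd68 (-0.097), with both A53T replicates 3 and 4 left out for Tyro3 (0.043), Pros1 (-0.33), Cd36 (-2.33), Scarb1 (-0.16), and with the salivary gland term for Cd36 (-0.46), Scarb1 (-0.0066). Over the leave-one-out fits the fold changes ran from -0.12 to 0.18 for Axl, -0.30 to 0.91 for Cd36 and -0.19 to 0.13 for Scarb1. The A53T minus EV difference of the microglial score was -0.20 (exact permutation p = 0.875) with both A53T replicates 3 and 4 left out, and 0.43 to 1.49 over the leave-one-out fits. Without scaling factors beyond library totals, the median fold change of all genes moved from 0.027 to 0.28. Causes were not tested. Deviations from group means of libraries with the same replicate number had correlations of -0.11, 0.24, -0.031, 0.31 and -0.37. These values were taken over all tested genes, many of which also vary with the mix of cells. They cannot tell whether the numbers pair the libraries, so it stays unknown whether the block describes the design. Depth limits Cd36 (272 reads) and Msr1 (129 reads) most.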
